A study of Mus musculus with 6 samples.

Results

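A set of 10 genes of bicarbonate, anion and monocarboxylate transport was followed in alveolar macrophages of mice with floxed Car4, a membrane carbonic anhydrase gene, with and without Cre. They are the 10 rows, of 46078 gene rows in the count table, that carry the symbols Slc4a2, Slc4a3, Slc4a7, Slc4a8, Slc4a11, Slc26a6, Slc26a11, Slc16a1, Slc16a7 and Adcy10, chosen by name and not by their values. A further row with the symbol Slc26a6 had 0 counts and was not used. All 10 passed the filter on low counts, as did 15147 genes in total. Macrophages were sorted from the lungs of untreated mice, and polyadenylated RNA gave 1 library per mouse. The control group was Car4fl/fl (3 mice), in which loxP sites flank both copies of Car4. The Cre group was Car4fl/fl-CD11cCre (3 mice), which adds Cre recombinase under CD11c (the gene Itgax), an integrin chain that alveolar macrophages and dendritic cells both carry. No group had Cre with unfloxed Car4, so effects of Cre and of Car4 deletion cannot be told apart. The sources used here do not give age, sex, strain background or the sorting gate.

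Cells handle carbon dioxide and metabolic acid through a small set of proteins. Carbonic anhydrases interconvert carbon dioxide with bicarbonate and a proton, and Car4 does so at the outer face of the membrane, where it is tethered by a lipid anchor. Slc4 and Slc26 proteins carry bicarbonate, chloride or related anions across membranes. Some Slc16 proteins, Slc16a1 and Slc16a7 among them, carry lactate, pyruvate and ketone bodies together with a proton. Adcy10 encodes the soluble adenylyl cyclase, which makes cAMP when bicarbonate binds it and so serves as a bicarbonate sensor.

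The 6 libraries held 53824475 to 65443314 counts, and a floor of 3 counts corresponded to 0.0465 to 0.0557 CPM, the count scaled to library size with TMM factors. The floor covers counting error only. Car4 was at 499, 385 and 270 CPM in control libraries and at 40.2, 46.9 and 36.3 CPM in Cre libraries, lower in every Cre library. By edgeR's quasi-likelihood test 2 genes passed an adjusted p of 0.05, Car4 and the phospholipase C gene Plcb4, the latter at 0.542 ± 0.00854 CPM (SD, n = 3) in controls and 27.9 ± 0.939 CPM (SD, n = 3) in the Cre group. Of the alveolar macrophage markers all 10 were detected, with a summed level of 21485 to 24526 CPM in control libraries and 26459 to 40128 CPM in Cre libraries. That difference lay in Chil3, without which the sums were 6702 to 7508 CPM and 7184 to 7541 CPM, and 6 of the 10 markers were below control. Markers of interstitial or monocyte-derived macrophages summed to 101 to 118 CPM in the controls and to 133, 403 and 1147 CPM in Cre libraries 1, 2 and 3, so the Cre libraries were unlike each other. Apoe and Mmp12 made up most of these sums. Of the other marker lists, those for fibroblasts summed to 8.51, 10.9 and 22.2 CPM in control libraries and 21.4, 8.27 and 16.7 CPM in Cre libraries, and those for airway and alveolar type 1 epithelium to 79.1 to 179 CPM against 39.8 to 56.6 CPM. The latter difference lay in Epcam, without which the sums were 22.7 to 24.4 CPM and 21.2 to 30.001 CPM. Neutrophil markers summed to 4.38 to 6.46 CPM against 4.36 to 12.6 CPM, mostly from S100a8, with Ly6g at 0 counts in all libraries. Among the single markers called by DESeq2 but, Car4 apart, not by edgeR, higher levels in the Cre libraries were seen for Marco, Chil3, Itgax, C1qa, C1qb, C1qc, Mmp12, Cd4 and Vwf, and lower levels for Siglecf, Car4, Cd163, Vcan, Clec9a and Epcam. Their part in the results on the transporters was not tested.

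Before the differences between genotypes, upstream sequence is shown for an abundant and for a scarce member, and for a member that starts beside another gene. Sequences are from RefSeq on GRCm38.p6, and 7 of the 10 members had an entry; Slc4a11, Slc26a11 and Slc16a7 had none. The windows are the 250 bases before the start of Slc16a1 (chr3:104638414-104638663, plus strand) and of Adcy10 (chr1:165484933-165485182, plus strand), with each CG dinucleotide in capitals.
Slc16a1: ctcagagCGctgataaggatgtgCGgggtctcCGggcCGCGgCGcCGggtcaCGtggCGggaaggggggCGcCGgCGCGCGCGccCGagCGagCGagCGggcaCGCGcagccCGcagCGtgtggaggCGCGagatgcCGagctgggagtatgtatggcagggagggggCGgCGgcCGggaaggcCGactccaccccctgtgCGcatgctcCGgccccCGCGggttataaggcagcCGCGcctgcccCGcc
Adcy10: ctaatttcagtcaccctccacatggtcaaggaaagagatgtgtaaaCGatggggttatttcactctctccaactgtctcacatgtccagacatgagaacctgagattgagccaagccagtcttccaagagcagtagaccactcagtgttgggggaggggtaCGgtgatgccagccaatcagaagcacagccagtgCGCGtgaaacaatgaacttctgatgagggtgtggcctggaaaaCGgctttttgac
The Slc16a1 window held 37 CG and the Adcy10 window 5, against a median of 6 over the 32851 RefSeq windows of this length, of which 92.1% held at least 1 CG (a self-complementary motif, so both strands count the same). Slc16a1 was at 36.6 CPM over the 6 libraries and Adcy10 at 1.12 CPM. The count of CG in these windows did not follow the level across members. Slc4a7, at 39.7 CPM, had 2 CG in its window, whereas Slc4a3, at 0.25 CPM, had 20, a number that 17.9% of all windows reached. Slc4a2 had 28 and 16 in its 2 windows, Slc4a8 16 and Slc26a6 9. For Slc4a2, Slc4a3, Slc4a7 and Slc26a6 the RefSeq start lies inside the gene as GENCODE M21 draws it. The Slc4a7 window lies deep inside, ending at 14718783, whereas GENCODE M21 starts that gene at 14702279. Which start these macrophages use is not measured by counts per gene.

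Slc26a11 and Sgsh, which encodes a lysosomal heparan sulfatase, are transcribed away from each other. In GENCODE M21 their starts are separated by 20 bases. The stretch chr11:119355507-119355586 (plus strand) is printed with those 20 bases in capitals, 30 bases of Sgsh before them and 30 bases of Slc26a11 after them.
Sgsh-Slc26a11: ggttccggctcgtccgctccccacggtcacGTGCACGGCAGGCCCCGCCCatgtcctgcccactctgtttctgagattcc
Both genes were scarce here. Of the 4414 exon bases of Sgsh 955 are shared with Card14 on the other strand. The strand setting of the counting is not given, so part of the Sgsh count cannot be assigned. Sgsh was at 1.23, 1.06 and 0.862 CPM in control libraries and 1.23, 1.18 and 1.49 CPM in Cre libraries, and edgeR put its log2 fold change at 0.30 ± 0.22 (SE), adjusted p 0.637.

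None of the 10 genes passed edgeR's threshold between genotypes, against 0.0132% of all tested genes (2 of 15147). DESeq2, which called 3.72% of all tested genes, called none of the 10 either. At an unadjusted p under 0.05, edgeR had 1 member higher in the Cre libraries, Slc4a3, and 2 lower, Slc4a7 and Adcy10, that is 3 of 10, where 12.8% of all tested genes reached that level. The members' median log2 fold change (Cre minus control) was 0.03, against -0.002 over all tested genes, and 6 of the 10 were above control, against 49.4% of all. Among the members Slc4a8 alone had every Cre library above every control, as 8.63% of all tested genes did, and Slc4a7 alone had every Cre library below, as 9.22% did. With so few members, shares of this size say little about the set. GEO's labels number the mice but do not say how they relate to each other. The p-values set the difference between the groups against the spread among libraries of the same group.

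**Figure D1:**
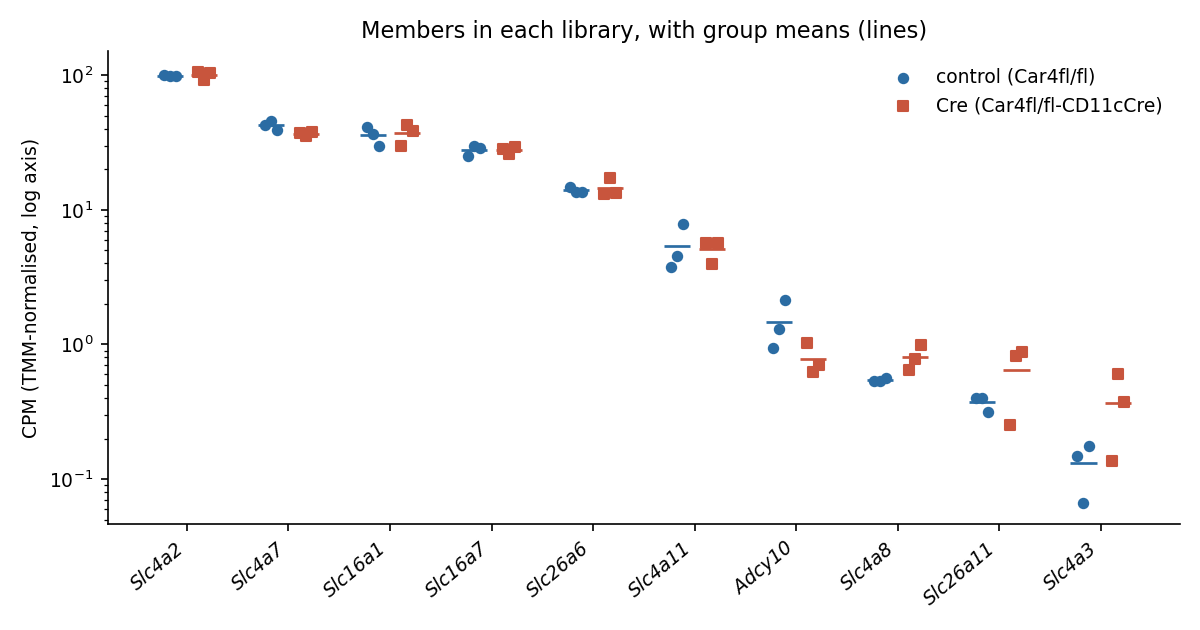
TMM-normalised CPM of the 10 genes (log axis) in each of 3 control libraries (blue circles) and 3 Cre libraries (red squares), with the group mean as a line. Slc4a2 lies near 100.4 CPM in the Cre libraries and 99.1 CPM in the controls, and Slc4a3 below 0.61 CPM in every library.

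Levels between genes were compared per length, as CPM per kb of annotated exon, and the members spanned a wide range. Slc4a2 was highest at 11.99 ± 0.579 CPM per kb (mean ± SD over 6 libraries), followed by Slc16a1 at 8.26 ± 1.24. Slc26a6 at 2.64 ± 0.283, Slc4a7 at 2.61 ± 0.258 and Slc16a7 at 2.36 ± 0.164 followed, and each neighbouring pair of these overlapped in range, so their order is not settled. Slc4a11 came next at 1.05 ± 0.301 CPM per kb. The other 4 lay far lower, with Slc26a11 at 0.141 ± 0.0739, Adcy10 at 0.128 ± 0.0629, Slc4a8 at 0.0515 ± 0.0137 and Slc4a3 at 0.0291 ± 0.0234 CPM per kb, again with overlapping ranges between neighbours. The ranges did not overlap between Slc4a2 and Slc16a1, Slc16a1 and Slc26a6, Slc16a7 and Slc4a11, or Slc4a11 and Slc26a11. Annotated exons include some that a cell may not use, so genes with many transcripts, such as Slc4a7 with 25 and 15205 exon bases, can come out too low on this scale. By CPM, 85.2% of tested genes lay below Slc4a2 and 6.50% below Slc4a3.

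**Figure D2:**
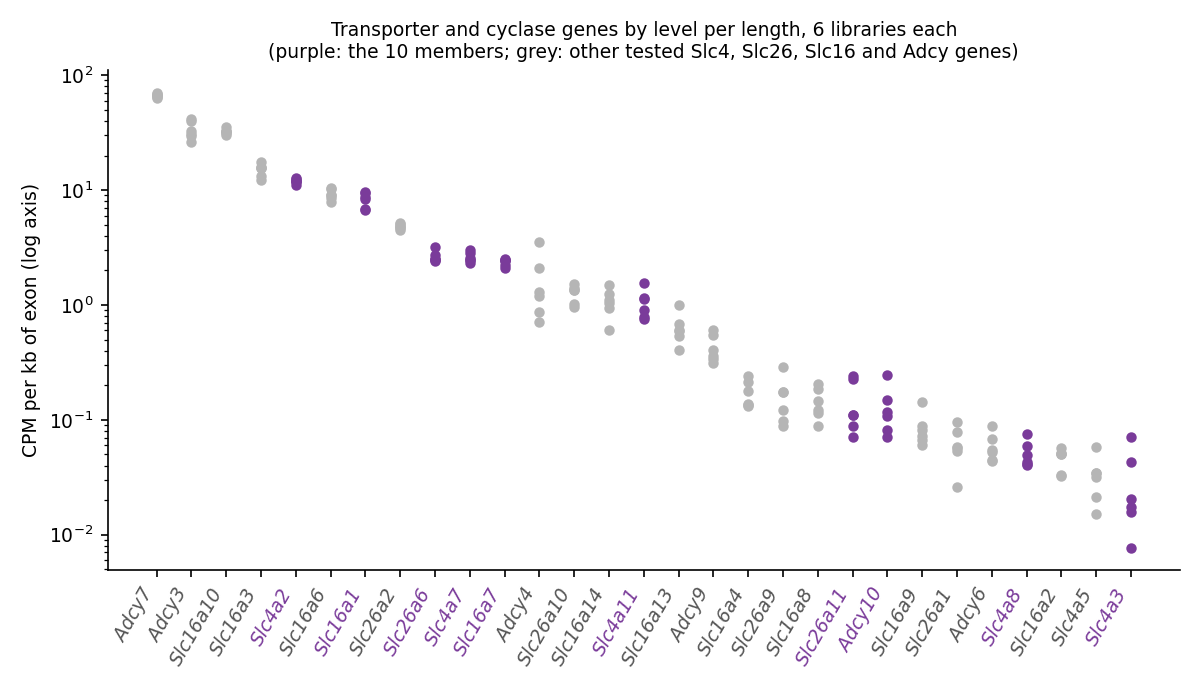
Level per length, as CPM per kb of annotated exon on a log axis, of the 10 members (purple) and of other tested Slc4, Slc26, Slc16 and membrane adenylyl cyclase genes (grey), with 1 point per library and genes in order of their mean. Slc4a2 and Slc16a1 lead the members, and Slc16a10, Slc16a3 and the cyclases Adcy7 and Adcy3 lie above them.

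Slc4a2 and Slc4a3 encode anion exchangers that move bicarbonate out of the cell for chloride and thereby load it with acid. Slc4a2 (ENSMUSG00000028962, chromosome 5 of GRCm38, 24423837 to 24440950, plus strand) was at 99.9, 98.0 and 99.4 CPM in control libraries and at 105, 91.8 and 104 CPM in Cre libraries. The controls were close together and the Cre libraries lay on both sides of them. Its log2 fold change was 0.02 ± 0.06 (SE), adjusted p 0.94 by edgeR, and the 95% interval allowed a fold between 0.916 and 1.12. At most 1242 of its 8322 exon bases are shared with genes on the other strand, mostly Fastk. That number adds the overlap with each gene and may count a base more than once. Part of the count therefore cannot be assigned without a strand setting. Fastk was at 42.7 ± 2.86 against 40.7 ± 2.15 CPM.

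Slc4a3 (ENSMUSG00000006576, chromosome 1, 75546266 to 75562172, plus strand), known mainly from heart and nervous tissue, was close to the floor. It had 9, 4 and 10 counts in the controls (0.149, 0.0665 and 0.176 CPM) and 8, 39 and 20 in the Cre libraries (0.135, 0.604 and 0.371 CPM). Cre libraries 2 and 3 were above all controls and Cre library 1 was among them. Its log2 fold change of 1.502 ± 0.60 (SE) had an adjusted p of 0.362 by edgeR, with a 95% interval from 0.10 to 2.90. Without Cre replicate 2 it was 0.94, and without Cre replicate 1 it was 1.89 with an adjusted p of 0.128. The 2 libraries in which Slc4a3 was high are those with the largest sums of interstitial or monocyte-derived macrophage markers, among them the complement gene C1qa at 12.4 and 18.2 CPM against 1.88 CPM in Cre library 1 and 0.680 to 1.01 CPM in the controls. Not all markers of that list were high there, since Lyve1 (0.496 and 0.724 CPM) and Cd163 (0.201 and 0.297 CPM) were at their lowest in these 2 libraries. The sums of alveolar macrophage, T and NK cell, B cell and neutrophil markers were also largest in these 2 libraries. T and NK cell markers, for example, summed to 4.55 and 4.47 CPM there, against 1.25 to 1.89 CPM in the rest. Slc4a3 was higher in Cre library 2, and the interstitial sum was higher in Cre library 3. The part of any of these cell types in the difference was not tested. In bulk RNA fewer cells of a type and less RNA per cell cannot be told apart.

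Slc4a7 and Slc4a8 encode sodium-coupled bicarbonate transporters, which bring bicarbonate in and so remove acid. Slc4a7, also known from macrophages for its role in the acidification of phagosomes (ENSMUSG00000021733, chromosome 14, 14702279 to 14799940, plus strand), was at 42.8, 45.9 and 38.9 CPM in control libraries and 37.3, 35.5 and 37.6 CPM in Cre libraries. All Cre values lay below all controls. Slc4a7 had a log2 fold change of -0.21 ± 0.07 (SE), a fold of 0.865 with a 95% interval from 0.775 to 0.964, with the smallest adjusted p of the members, 0.266 by edgeR and 0.213 by DESeq2. It was between -0.27 and -0.15 with any 1 library left out.

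Slc4a8 (ENSMUSG00000023032, chromosome 15, 100761747 to 100823968, plus strand), which exchanges sodium and bicarbonate for chloride, had 32 counts in each control (0.531, 0.532 and 0.563 CPM). The Cre libraries had 38, 50 and 53 counts (0.642, 0.774 and 0.984 CPM), each above every control. Its log2 fold change was 0.56 ± 0.25 (SE), adjusted p 0.404 by edgeR, and the 95% interval ran from -0.02 to 1.13. With 32 counts a library, counting error is larger than the spread among these controls.

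Slc4a11, which belongs to the family by sequence but is known as a carrier of protons or hydroxide and water rather than bicarbonate, varied among the controls (ENSMUSG00000074796, chromosome 2, 130684113 to 130697519, minus strand). The controls were at 3.78, 4.52 and 7.81 CPM and the Cre libraries at 5.69, 3.95 and 5.64 CPM. The groups overlapped throughout, with control library 3 the highest of all. The log2 fold change was -0.08 ± 0.28 (SE), adjusted p 0.946 by edgeR, and became 0.29 without control replicate 3. Control library 3 and Cre libraries 1 and 3, in which Slc4a11 was highest, also had the largest sums of fibroblast markers, 22.2, 21.4 and 16.7 CPM against 8.27 to 10.9 CPM in the rest. The 3 collagen genes carried these sums, while Dcn was lowest in Cre library 3 and control library 3 (0.761 and 0.809 CPM) and Pdgfra lowest in Cre library 3 (0.371 CPM). The part of such cells in the level of Slc4a11 was not tested.

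**Figure D3:**
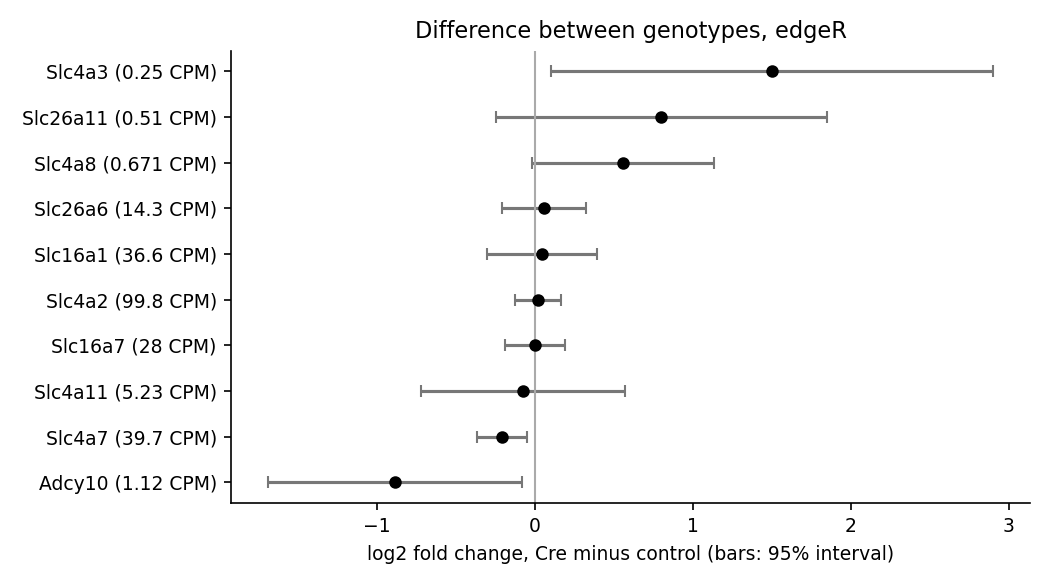
Log2 fold change (Cre minus control) of the 10 members from edgeR, with bars for the 95% interval and the mean CPM over 6 libraries beside each name. Intervals are narrow for Slc4a2, Slc4a7 and Slc16a7 and wide for Slc4a3, Slc26a11 and Adcy10, and those of Slc4a3, Slc4a7 and Adcy10 leave out 0 before adjustment.

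Slc26a6 and Slc26a11 belong to a second family of anion transporters. Slc26a6, which exchanges chloride for bicarbonate or oxalate (ENSMUSG00000023259, chromosome 9, 108853283 to 108913049, plus strand), was at 14.8, 13.5 and 13.7 CPM in control libraries and 13.2, 17.1 and 13.3 CPM in Cre libraries. Cre library 2 alone stood above the others. The log2 fold change of 0.06 ± 0.12 (SE) had an adjusted p of 0.897 by edgeR, with a 95% interval of the fold from 0.864 to 1.25, and was -0.08 without Cre replicate 2.

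Slc26a11, known as a sulfate and chloride transporter (ENSMUSG00000039908, chromosome 11, 119355557 to 119381079, plus strand), had 24, 24 and 18 counts in the controls (0.398, 0.399 and 0.317 CPM). The Cre libraries had 15, 53 and 47 counts (0.253, 0.821 and 0.873 CPM). Cre library 1 was the lowest of all 6 and Cre libraries 2 and 3 were the highest. Cre libraries 2 and 3 were also the highest for Slc4a3 and C1qa, whereas in Cre library 1 Slc4a3 lay among the controls and C1qa above them. The log2 fold change was 0.80 ± 0.45 (SE), adjusted p 0.528 by edgeR, and without Cre replicate 1 it was 1.18 with an adjusted p of 0.108. Its divergent neighbour Sgsh did not separate the Cre libraries in this way, with 73, 76 and 80 counts in the Cre libraries. The overlap of Sgsh with Card14 limits this comparison.

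Slc16a1 and Slc16a7 encode the monocarboxylate transporters MCT1 and MCT2, through which lactate leaves or enters a cell with a proton. Slc16a1 (ENSMUSG00000032902, chromosome 3, 104638668 to 104658462, plus strand) was at 41.4, 36.8 and 29.99 CPM in control libraries and 29.9, 42.6 and 38.8 CPM in Cre libraries. The 2 groups covered nearly the same range. Its log2 fold change was 0.04 ± 0.15 (SE), adjusted p 0.944 by edgeR, with a 95% interval of the fold from 0.808 to 1.31. Slc16a7 (ENSMUSG00000020102, chromosome 10, 125219270 to 125389465, minus strand) was at 25.04, 29.995 and 29.0 CPM in control libraries and 28.4, 26.2 and 29.3 CPM in Cre libraries. The log2 fold change of -0.003 ± 0.082 (SE), adjusted p 0.993 by edgeR, was the smallest of the 10, and the interval of the fold ran from 0.874 to 1.14.

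Adcy10 (ENSMUSG00000026567, chromosome 1, 165485183 to 165576774, plus strand) was scarce, with 57, 78 and 121 counts in the controls and 61, 40 and 38 in the Cre libraries. These are 0.946, 1.296 and 2.13 CPM against 1.03, 0.619 and 0.705 CPM. Control library 3 was the highest and Cre libraries 2 and 3 were the lowest, while Cre library 1 lay among the controls. For Adcy10 the log2 fold change was -0.89 ± 0.35 (SE), a fold of 0.54 with a 95% interval from 0.309 to 0.943, and the adjusted p was 0.348 by edgeR and 0.267 by DESeq2. Without control replicate 3 it was -0.52. Downstream of Mpc2 on the same strand, Adcy10 neighbours a more abundant gene. Mpc2, a subunit of the mitochondrial pyruvate carrier, was at 86.5 ± 2.05 against 77.8 ± 5.49 CPM (adjusted p 0.351 by edgeR).

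**Figure D4:**
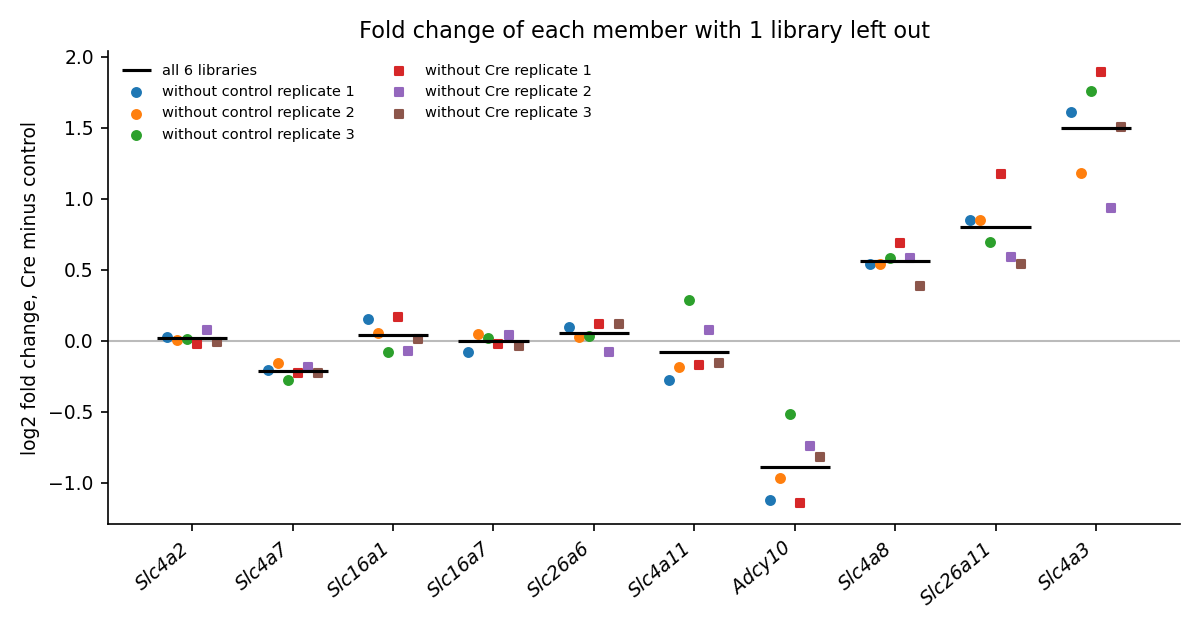
Log2 fold change (Cre minus control, edgeR) of each member with all 6 libraries (black line) and with 1 library left out (circles for a control, squares for a Cre library), in order of mean CPM. The 5 most abundant genes stay between -0.27 and 0.17, whereas Slc4a3 ranges from 0.94 to 1.89 and Adcy10 from -1.14 to -0.52.

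No relative of the members in the Slc4, Slc26 or Slc16 families was called by edgeR or DESeq2, which called 0.0132% and 3.72% of all tested genes. Pairs of values here are the control and then the Cre mean ± SD (n = 3). Of the other Slc4 genes only Slc4a5 passed the filter, at 0.162 ± 0.0643 against 0.216 ± 0.1102 CPM. The red cell exchanger Slc4a1 had 16 counts and the cotransporter Slc4a4 26 counts over all 6 libraries. Of the other Slc26 genes 4 of 9 were tested and none was called by edgeR or DESeq2. The sulfate transporter Slc26a2 was at 58.1 ± 2.29 against 62.1 ± 2.56 CPM and Slc26a10 at 4.69 ± 1.20 against 5.53 ± 0.1103 CPM, and Slc26a5 had 0 counts. Of the other Slc16 genes 9 of 12 were tested and none was called. By edgeR 2 were lower at an unadjusted p under 0.05, a level that 12.8% of all tested genes reached in either direction. Slc16a10, which carries aromatic amino acids, was the most abundant at 240.4 ± 19.0 against 236.7 ± 5.49 CPM. Slc16a3, the lactate exporter MCT4 of glycolytic cells, was at 92.4, 83.5 and 84.2 CPM in control libraries and 71.2, 82.2 and 65.0 CPM in Cre libraries. Every Cre library lay below every control, as for 9.22% of all tested genes. For Slc16a3 edgeR gave a log2 fold change of -0.25 ± 0.09 (SE), adjusted p 0.299.

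Monocarboxylate transporters act with partner proteins that bring them to the membrane and with enzymes that make or use lactate and pyruvate. Bsg, basigin, which brings MCT1 and MCT4 to the membrane, was at 219 ± 12.6 against 211 ± 9.67 CPM, and Nptn, neuroplastin, a relative of basigin, at 199 ± 11.9 against 186 ± 1.43 CPM. Emb, embigin, which partners MCT2, was at 108, 102 and 109 CPM in control libraries and 84.5, 70.4 and 98.2 CPM in Cre libraries (adjusted p 0.272 by edgeR), and is named here after seeing its values. All 3 were below control and none was called. Of the lactate and pyruvate genes 9 of 12 were tested, edgeR called 0 and DESeq2 called 1 higher, where DESeq2 called 3.72% of all tested genes. That gene was Ldhb, the heart-type lactate dehydrogenase chain, at 0.199, 0.116 and 0.369 CPM in control libraries and 0.591, 3.28 and 1.99 CPM in Cre libraries, with an adjusted p of 0.157 by edgeR and 6.92e-05 by DESeq2. It was highest in Cre libraries 2 and 3. There the sums of interstitial macrophage, T and NK cell, B cell and neutrophil markers were highest too, and their part was not tested. The abundant chain Ldha was at 496 ± 25.9 against 479 ± 8.83 CPM.

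Of 12 genes that regulate bicarbonate transport, 11 were tested and edgeR called none. DESeq2 called 1 lower and 1 higher, where it called 3.72% of all tested genes. Stk39, the kinase SPAK that phosphorylates ion transporters, was at 9.31, 8.96 and 8.36 CPM in control libraries and 3.85, 2.51 and 6.61 CPM in Cre libraries, a log2 fold change of -1.04 ± 0.30 (SE) with an adjusted p of 0.218 by edgeR and 0.00905 by DESeq2. Itpr3, an inositol trisphosphate receptor, was at 2.89, 4.30 and 4.15 CPM against 6.52, 7.14 and 5.53 CPM (adjusted p 0.17 by edgeR and 0.00569 by DESeq2). For both genes the groups did not overlap. All Cre libraries lay below all controls for 9.22% of all tested genes, and above them for 8.63%. The chloride and bicarbonate channel gene Cftr had 15 counts over the 6 libraries.

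Adcy7 and Adcy3 encode membrane adenylyl cyclases, which answer to G proteins, and were far more abundant than Adcy10. Adcy7 was at 66.7 and Adcy3 at 33.4 CPM per kb over the 6 libraries, against 0.128 for Adcy10. Of 9 such genes 5 were tested, edgeR called none and DESeq2 called 1 lower, Adcy3, at 259, 252 and 204 CPM in control libraries and 190.5, 163.5 and 184 CPM in Cre libraries (log2 fold change -0.41 ± 0.10 (SE), adjusted p 0.176 by edgeR and 0.00562 by DESeq2). All 16 effectors and phosphodiesterases of cAMP were tested, with a median log2 fold change of 0.006. edgeR called none and DESeq2 called 2 higher and 1 lower, that is 3 of 16 against 3.72% of all tested genes. The lower one was Prkacb, a catalytic subunit of protein kinase A, at 65.3 ± 9.69 against 48.5 ± 4.03 CPM. Higher were Pde3b, a phosphodiesterase, at 119.7 ± 3.02 against 136.9 ± 1.45 CPM, and Prkar1b, a regulatory subunit, at 0.0830, 0.0332 and 0.123 CPM against 0.203, 0.836 and 1.26 CPM. Their adjusted p values by edgeR were 0.185 for Prkacb, 0.17 for Pde3b and 0.161 for Prkar1b. Of 16 carbonic anhydrases 11 were tested and edgeR called Car4 alone. DESeq2 called 2 lower and 1 higher, where it called 3.72% of all tested genes. Beside Car4 these were Car5b, lower at 31.7 ± 8.42 against 17.2 ± 1.48 CPM, and Car13, higher at 4.57 ± 1.10 against 8.81 ± 3.99 CPM. By edgeR the adjusted p was 0.157 for Car5b and 0.281 for Car13.

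**Figure D5:**
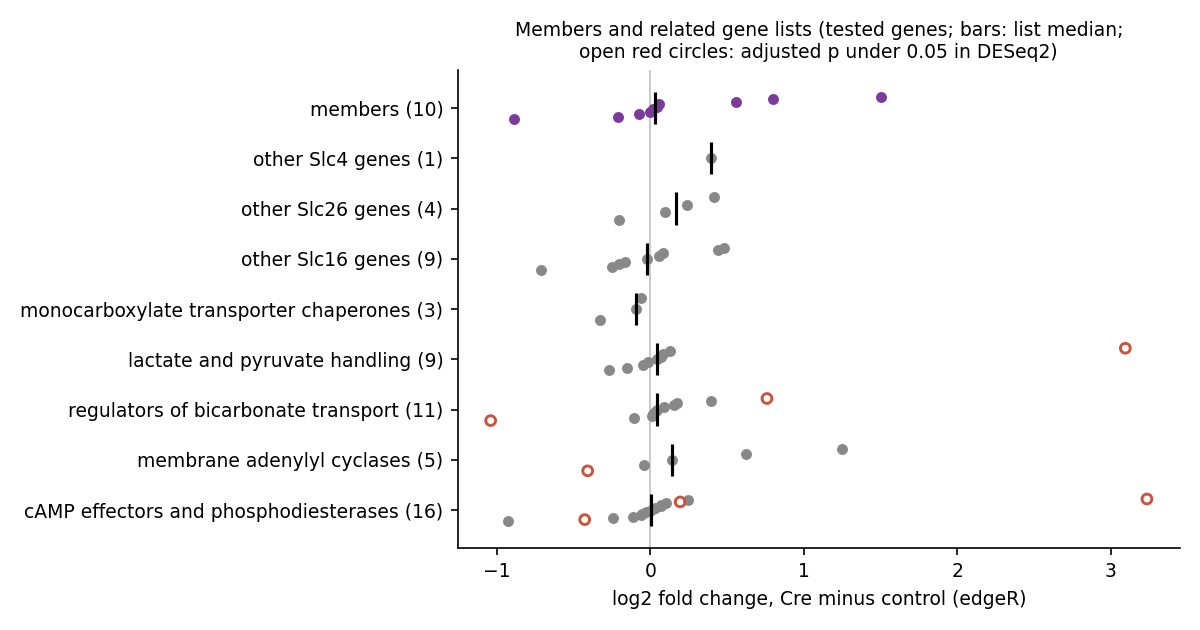
Log2 fold change (Cre minus control, edgeR) of the tested genes in the members' list and in 8 related lists, with the number tested in brackets and the list median as a black bar. List medians lie between -0.09 and 0.40, the latter from a single gene, and the open red circles mark the genes that DESeq2 called, none of them a member.

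The genes whose pattern over the 6 libraries was most like that of a member were found by Pearson's r of log2 CPM (prior count 2). Compared were tested genes of at least 1 CPM, leaving out predicted genes (Gm and Rik symbols). For Slc4a3, the member with the largest log2 fold change, these were Npc2 and Gmppa (both r = 0.993) and Ssr3 (r = 0.992), out of 10880 genes compared. For Slc4a2, the most abundant member by CPM, they were Hdac7 (r = 0.987), Mtmr12 (r = 0.975) and Zc2hc1a (r = 0.975), out of 10879. With 6 libraries of 2 groups these values only rank genes and carry no test. The level of Npc2 was 540 CPM in control libraries and 598 CPM in Cre libraries, a far smaller relative difference than that of Slc4a3.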

How the data were processed

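Polyadenylated RNA of 6 libraries was sequenced, and the authors deposited raw counts for each gene. Tools named in the submitters' processing notes include STAR 2.6.1, featureCounts 1.6.4 and the build GRCm38, with no role or order. The sources used here give neither annotation release nor strand setting. Columns were matched to mice by library name. Of 46078 rows, 45229 were found in GENCODE M21, used here for positions and exon lengths, and 849 were not. Where a symbol had several rows (214 symbols), the row with most counts was used.

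The counts were fitted in R 4.3.3 with edgeR 4.0.16 (filterByExpr at a minimum count of 10, TMM, glmQLFit, glmQLFTest, two-sided, Benjamini-Hochberg over 15147 genes, threshold 0.05), with full library sizes and no covariate. DESeq2 1.42.0 and limma 3.58.1 were alternatives. SE is the absolute log2 fold change over the root of F, and 95% intervals use the test's t distribution. The code was tested on simulated data. Within groups, replicates differed by a chi-square per degree of freedom of 19.6 to 51.4, far above sampling noise. The 10 members, the other lists and the tests were chosen with earlier results of these data known. Genes named were the members, Car4, Plcb4, each functional list's DESeq2 or edgeR calls or otherwise its 2 most abundant genes, and the 3 genes most like 2 members. Marker lists are given as sums, also without their most abundant gene where it carried a difference, and 1 single marker is not reported here. Emb, Mpc2, Fastk, Sgsh, Slc4a1, Slc4a4, Slc26a5, Cftr, Adcy7, Ldha and the markers Ly6g, S100a8, Apoe, Lyve1, Dcn and Pdgfra lie outside this rule or were picked with values in view. Alternatives were other scalings, filters and dispersion settings, the replicate number as a block, and leaving out each library. Figures used matplotlib 3.10.9.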

Additional observations from a re-analysis of the deposited data

How the results depend on the processing

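No member was called under any alternative tried, with a smallest adjusted p over all of 0.108 (Slc26a11, edgeR without Cre replicate 1). Over all tested genes the 2 calls became 564 by DESeq2, 523 without a filter on low counts and 1 with robust dispersions. Leaving out 1 library gave between 1 call (without control replicate 2) and 286 calls (without Cre replicate 1). The replicate block gave 10 calls. Libraries that share a number did not deviate together (r of -0.00977, -0.156 and 0.0691), so numbers were not taken to pair mice.

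Of 156 recomputed log2 fold changes of members, 145 kept their direction and 11 turned it, all in genes whose main value lay between -0.08 and 0.06. With 1 library left out, Slc4a2 ran from -0.0229 to 0.0783, Slc4a11 from -0.28 to 0.29, Slc26a6 from -0.0814 to 0.117, Slc16a1 from -0.0788 to 0.169 and Slc16a7 from -0.0787 to 0.0473. Slc16a7 was at 0.00277 when genes had to reach 5 CPM in 3 libraries. That filter left 6 of the 10 members, dropping Slc4a3, Slc4a8, Slc26a11 and Adcy10. The median log2 fold change of all genes stayed within 0.01 of 0 under each setting. At 4 to 121 counts per library, depth limits what can be said of Slc4a3, Slc4a8, Slc26a11 and Adcy10, and their intervals span a wide range of folds.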
